A study of Mus musculus with 114 samples.

Results

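The 10 genes described here encode the chaperones that fold proteins in the cytosol and that heat shock induces or that work beside the induced ones: Hspa1b, Hspa8, Hsph1, Dnajb1, Dnaja1, Hsp90aa1, Hsp90ab1, Chordc1, Stip1 and Ahsa1. They were taken by symbol from a table of 13101 genes, and all 10 were present and passed the filter on low counts. The table holds RNA bound to tagged ribosomes of the prefrontal cortex of Ribo-tag mice, in which a cell type chosen by a Cre driver carries a haemagglutinin tag on its ribosomes. The labels name no Cre driver, age or treatment. Libraries were made at ZT2, ZT6, ZT10, ZT14, ZT18 and ZT22 (zeitgeber time, in hours), from both sexes, and all groups share the Ribo-tag genotype.

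Of 113 libraries used, 55 have titles that start with PV (28 from females, 27 from males) and 58 have titles that start with C (29 from each sex), with 8 to 10 libraries for each prefix and time. The cell type entry of every library names the opposite cell from the one its title points to: PV-titled libraries are entered as pyramidal cells and C-titled ones as parvalbumin interneurons. The groups follow the titles and are called PV-titled and C-titled. Summed levels of 10 markers of parvalbumin interneurons went with the titles, with a median of 121 CPM (read counts scaled to a common library size) in C-titled libraries and 581 in PV-titled ones. The sum of 9 pyramidal markers had a median of 2318 CPM in the PV-titled group and 5998 CPM in the other. Markers of other cells were also higher in PV-titled libraries, and no marker was at 0 in all libraries of a prefix, although Syt2, Cox6a2 and Slc32a1 were at 0 in some C-titled ones: median sums were 1112 against 453 CPM for astrocyte markers, 501 against 222.2 for oligodendrocyte markers, 200 against 63.1 for microglia markers and 196.97 against 31.7 for endothelial and mural markers.

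Reads assigned to genes ranged from 19.1 M to 39.5 M in PV-titled and from 24.6 M to 44.1 M in the C-titled group. Some libraries stood apart, with a median correlation to their own prefix over 6 median absolute deviations below the prefix median. The 3 PV-titled ones were from ZT10, ZT14 and ZT22, and the 5 C-titled ones were from ZT2 and ZT6. Results are given with and without them where that changes a call. The labels do not say whether libraries come from separate animals, so p-values measure the spread between libraries, which may be technical. In a bulk pull-down, fewer cells of a type and less RNA per cell cannot be told apart.

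Hsp70 proteins bind exposed hydrophobic stretches of unfolded proteins in a cycle driven by ATP. J-domain proteins (Hsp40) deliver clients to Hsp70 and start ATP hydrolysis, Hsp110 proteins exchange the nucleotide, and cochaperones hand clients on to Hsp90, which matures kinases and steroid receptors. Heat shock factor HSF1 switches on the inducible members through heat shock elements, DNA in which GAA and its complement TTC alternate, and neurons are known for a weak induction of Hsp70 under stress.

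Promoter sequences were available for 7 of the 10 genes, in 11 windows of 300 bases (250 before and 50 after the start), from RefSeq on build GRCm38.p6. Each was searched for GAANNTTC and TTCNNGAA, the paired units of a heat shock element, which read the same on both strands and may overlap each other. Of all 32851 promoters of this length, 15.1% held at least 1 match, and 0.256% held 3 or more. Chordc1 had 5 matches, Hsph1 had 3 in each of its 2 windows, Hspa1b had 1, Dnaja1 had 1 in 1 of its 3 windows, and the windows of Dnajb1, Stip1 and Ahsa1 had none. At least 5 matches were present in the promoters of 3 genes in all (0.00913% of promoters). The stretches with matches are printed 5′ to 3′ on the gene's strand, with matched bases in capitals, to show how the matches are spaced; they cover every match in these windows, with the first window shown for Hsph1.

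Chordc1, chr9:18292260-18292288, plus strand, block from 4 bases before the start to base 19: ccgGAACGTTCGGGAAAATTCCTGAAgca
Chordc1, chr9:18292290-18292316, plus strand, bases 34 to 41 after the start: taccggcggcTTCCGGAAgctagctgc
Hsph1, chr5:149636352-149636379, minus strand, 33 to 26 bases before the start of the first window: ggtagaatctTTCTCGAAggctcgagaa
Hsph1, chr5:149636287-149636308, minus strand, bases 37 to 49 after the same start: gctgcagaTTCTGGAAAGTTCt
Hspa1b, chr17:34959325-34959352, minus strand, 104 to 97 bases before the start: gaaactgctgGAAGATTCctggccccaa
Dnaja1, chr4:40722334-40722361, plus strand, 124 to 117 bases before the start: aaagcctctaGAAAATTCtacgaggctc

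In Chordc1 a single block of 23 bases held 4 overlapping matches across the start, and the fifth lay farther into the transcript. The match in Hspa1b stood alone. A match is a description of letters, and its absence says only that they are not in this window.

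Each of the 10 chaperones had a lower level in PV-titled libraries (edgeR quasi-likelihood F test, Benjamini-Hochberg over 13053 genes), where 43.2% of all genes were called lower and 87.5% were called in either direction. The drop was largest for the inducible Hsp70 gene Hspa1b and for both Hsp90 genes, and it was smallest for Chordc1. Since most genes differed, a drop of at least 2-fold was tested as well (glmTreat), which 4.54% of genes passed. It was passed by 5 of the 10: Hspa1b, Hspa8, Dnajb1, Hsp90aa1 and Hsp90ab1. The median log2 difference was -1.08 over the 10 genes and 0.01 over all genes. With no scaling beyond library totals the median of all genes moved to 0.21, and 38.3% of called genes were lower instead of 49.3%. Under that scaling 9 of the 10 were called lower, and the 2-fold call was kept by 4. Astrocyte, oligodendrocyte, microglia and vascular marker sums were higher in PV-titled libraries, as given above, and the part of those cells in the drop was not tested.

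Separation without overlap was also counted over all genes. Every PV-titled library lay below every C-titled one in 2.1% of the genes, and at a single time such separation held at 6 of 6 times in 3.91%, at 5 or more in 6.68%, at 4 or more in 9.49%, at 3 or more in 12.6% and at 2 or more in 16.9%. Of the 10 chaperones, both Hsp90 genes were separated over all libraries, Hsph1 at 6 times, Dnajb1, Dnaja1 and Ahsa1 at 5, Stip1 at 4, Hspa8 at 3, Hspa1b at 2 and Chordc1 at none.

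**Figure D1:**
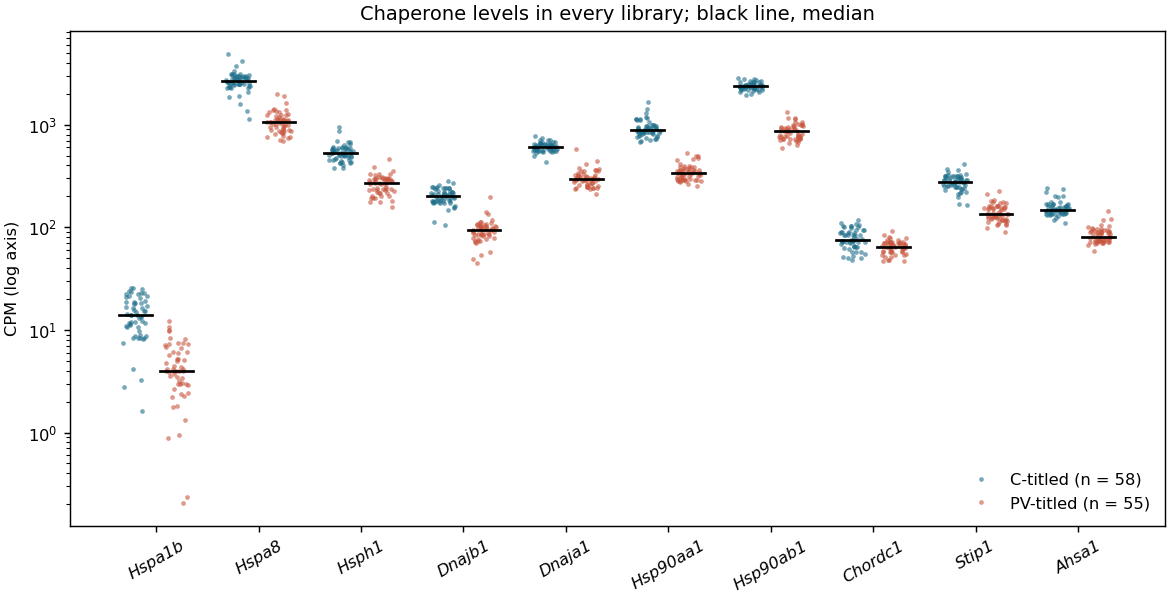
Level of each chaperone in CPM (log axis) in every C-titled (n = 58) and PV-titled (n = 55) library, with the median as a black line. The 2 clouds are separate for Hsp90aa1 and Hsp90ab1 and largely overlap for Chordc1.

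Hsp70 genes came first. Hspa1b (ENSMUSG00000090877, chr17:34956436-34959238, minus strand, GRCm38) encodes the stress-inducible Hsp70. Its level ran from 1.62 through a median of 14.01 to 25.6 CPM in C-titled libraries, and from 0.205 through 4.004 to 12.2 CPM in PV-titled ones. Every PV-titled library lay below the C-titled median, but only 5 of 55 lay below the lowest C-titled library. Such counts were not made over all genes. The log2 difference was -1.67 ± 0.13 (SE; adjusted p = 1.99e-22), or 3.17-fold lower. Hspa1b lies beside the near-identical Hspa1a, and the authors' counting could split reads between them. Hspa1a averaged 13.8 ± 3.64 CPM (SD, n = 58) in C-titled and 5.95 ± 2.64 CPM (n = 55) in PV-titled libraries, with a log2 difference of -1.21 ± 0.09 (edgeR adjusted p = 8.26e-26).

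Hspa8 (ENSMUSG00000015656, chr9:40800984-40810087, plus strand) encodes Hsc70, the constitutive Hsp70 that also uncoats clathrin vesicles. It ranged from 1143 through 2662 to 4906 CPM in C-titled and from 694.8 through 1055 to 1996 CPM in PV-titled libraries. Of the C-titled libraries, 53 of 58 lay above the highest PV-titled one, a count not made over all genes. The log2 difference was -1.30 ± 0.05 (edgeR adjusted p = 9.15e-46). The lowest C-titled values, 1143 and 1358 CPM, came from libraries that stand apart.

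Hsph1 (ENSMUSG00000029657, chr5:149614287-149636376, minus strand) encodes Hsp105, an Hsp110 exchange factor for Hsp70. C-titled libraries ranged from 377.8 through 529.6 to 947.6 CPM and PV-titled ones from 158.6 through 268.9 to 467.2 CPM. At each of the 6 times the prefixes did not overlap, as in 3.91% of all genes. The log2 difference was -1.02 ± 0.04 (edgeR adjusted p = 5.98e-45).

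Both J-domain genes were lower, by 2.18-fold and 2.01-fold. Dnajb1 (ENSMUSG00000005483, chr8:83608193-83612653, plus strand), the classic inducible Hsp40, ranged from 104.1 through 201.4 to 283.3 CPM in C-titled and from 45.2 through 93.5 to 195.1 CPM in PV-titled libraries, a log2 difference of -1.13 ± 0.05 (edgeR adjusted p = 2.60e-43). Dnaja1 (ENSMUSG00000028410, chr4:40722150-40737149, plus strand), a farnesylated partner of Hsc70, ranged from 436.9 through 607.7 to 773.3 CPM and from 212.9 through 292.8 to 579.6 CPM. Its log2 difference was -1.01 ± 0.04 (edgeR adjusted p = 1.11e-49). Prefixes did not overlap at 5 of 6 times for either gene, where 6.68% of all genes were separated at 5 or more. Dnaja1 passed the 2-fold test only when the libraries that stand apart were left out (edgeR adjusted p = 0.0223, against 0.728 with them), which brought the count to 6 of 10.

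The Hsp90 genes separated the prefixes without overlap: all 55 PV-titled libraries lay below all 58 C-titled ones for both, as in 2.1% of all genes. Hsp90aa1 (ENSMUSG00000021270, chr12:110690605-110702728, minus strand), the inducible alpha form, ranged from 673.7 through 876.8 to 1671 CPM in C-titled and from 249.6 through 338.9 to 528.0 CPM in PV-titled libraries. The difference was -1.41 ± 0.05 on the log2 scale (edgeR adjusted p = 2.32e-52). Hsp90ab1 (ENSMUSG00000023944, chr17:45567775-45573271, minus strand), the constitutive beta form, ranged from 1927 through 2367 to 2872 CPM and from 594.0 through 864.0 to 1328 CPM. Here the difference was -1.47 ± 0.04 (edgeR adjusted p = 7.96e-65), and 1.18% of genes had a more negative one. Hsp90 genes and Hspa8 have processed copies elsewhere in the genome, so their counts depend on how the authors handled reads with several matches.

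The cochaperones of Hsp90 had the 3 differences closest to 0, at -0.98, -0.86 and -0.25. Stip1 (ENSMUSG00000024966, chr19:7020702-7039967, minus strand) encodes Hop, the bridge between Hsp70 and Hsp90. It ranged from 166.5 through 277.2 to 415.5 CPM in C-titled and from 89.6 through 135.4 to 223.6 CPM in PV-titled libraries (log2 difference -0.98 ± 0.04, edgeR adjusted p = 1.01e-44). Ahsa1 (ENSMUSG00000021037, chr12:87266479-87273998, plus strand), which encodes the activator of the Hsp90 ATPase, ranged from 109.9 through 146.8 to 239.2 CPM and from 59.1 through 79.5 to 143.5 CPM (log2 difference -0.86 ± 0.04, edgeR adjusted p = 1.37e-38).

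Chordc1 (ENSMUSG00000001774, chr9:18292125-18317442, plus strand) encodes an Hsp90-binding protein with CHORD zinc domains. It ranged from 48.4 through 74.7 to 118.9 CPM in C-titled and from 46.5 through 64.7 to 91.9 CPM in PV-titled libraries, and the prefixes overlapped at all 6 times. Its log2 difference of -0.25 ± 0.04 (edgeR adjusted p = 1.71e-08) corresponds to 1.19-fold, and 37.5% of genes had a more negative one. With no scaling beyond library totals it was -0.05 (edgeR adjusted p = 0.265), the only one of the 10 calls lost under that scaling. Within the first and second ranges of library numbers the Chordc1 difference was -0.30 and -0.20, while that of Hsp90ab1 was -1.40 and -1.52. All 10 were called lower within each range and within each sex. Over all genes, 5036 of 13065 and 5442 of 13055 were called lower in the first and second range. In females and males these were 5284 of 13044 and 5278 of 13049.

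Per kilobase of exon, the 10 genes kept 1 order in both prefixes. Hsp90ab1 led with 793 ± 63.7 CPM per kb (SD, n = 58) in C-titled and 287.5 ± 49.4 (n = 55) in PV-titled libraries, followed by Hspa8 with 622 ± 134 and 250.5 ± 61.7 CPM per kb. Hsp90aa1, Stip1, Hsph1, Dnaja1, Dnajb1, Ahsa1 and Chordc1 came next in that order. Hspa1b was last with 5.19 ± 2.16 CPM per kb in C-titled and 1.65 ± 0.937 in PV-titled libraries. Among neighbours, Hsph1, Dnaja1 and Dnajb1 differed by less than the larger of their SDs in both prefixes, as did Hsp90ab1 and Hspa8 in PV-titled libraries. The coefficient of variation over C-titled libraries was lowest for Hsp90ab1 (8.04%) and highest for Hspa1b (41.6%). Over PV-titled libraries it was lowest for Chordc1 (14.7%) and again highest for Hspa1b (56.8%).

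Of the other chaperone groups, most were lower in PV-titled libraries too. All 8 subunits of the chaperonin TRiC, which folds actin and tubulin, were lower with a median log2 difference of -0.93, led by Cct6a at -1.23 ± 0.04 (edgeR adjusted p = 2.25e-59). All 10 other J-domain genes (median -0.61), all 8 other Hsp70 cochaperones (median -0.55) and all 6 prefoldin subunits (median -0.58) were lower, as were 10 of 12 other Hsp90 cochaperones, 5 of 6 other Hsp70 and Hsp110 genes and 4 of 5 mitochondrial chaperones. Each of these medians was closer to 0 than the -1.08 of the 10 genes, a difference that was not tested. Without scaling beyond library totals no listed gene changed its sign, and 8 J-domain genes, 6 Hsp70 cochaperones and 7 Hsp90 cochaperones were still called lower.

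The factor itself went the other way. Hsf1, which encodes the main heat shock factor, ranged from 21.8 through 44.6 to 55.7 CPM in C-titled and from 33.7 through 64.0 to 98.0 CPM in PV-titled libraries. It was higher in PV-titled libraries by 0.54 ± 0.05 on the log2 scale (edgeR adjusted p = 2.15e-20), although the ranges overlapped. Hsf2 was higher by 0.91 ± 0.29 (edgeR adjusted p = 0.00264), with C-titled libraries from 7.03 to 445 CPM, and Hsbp1, which encodes a protein that binds the heat shock factor trimer, was lower by -0.78 ± 0.06 (edgeR adjusted p = 4.56e-25). Both measured small heat shock proteins were higher. Cryab, an alpha-crystallin abundant in oligodendrocytes and astrocytes, had a log2 difference of 1.31 ± 0.08 (edgeR adjusted p = 1.91e-31) and Hspb8 of 2.47 ± 0.15 (edgeR adjusted p = 2.45e-31), beside the higher glial marker sums. Ahsa2, a relative of Ahsa1, was higher by 0.88 ± 0.04 (edgeR adjusted p = 5.19e-38) where Ahsa1 was lower.

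**Figure D2:**
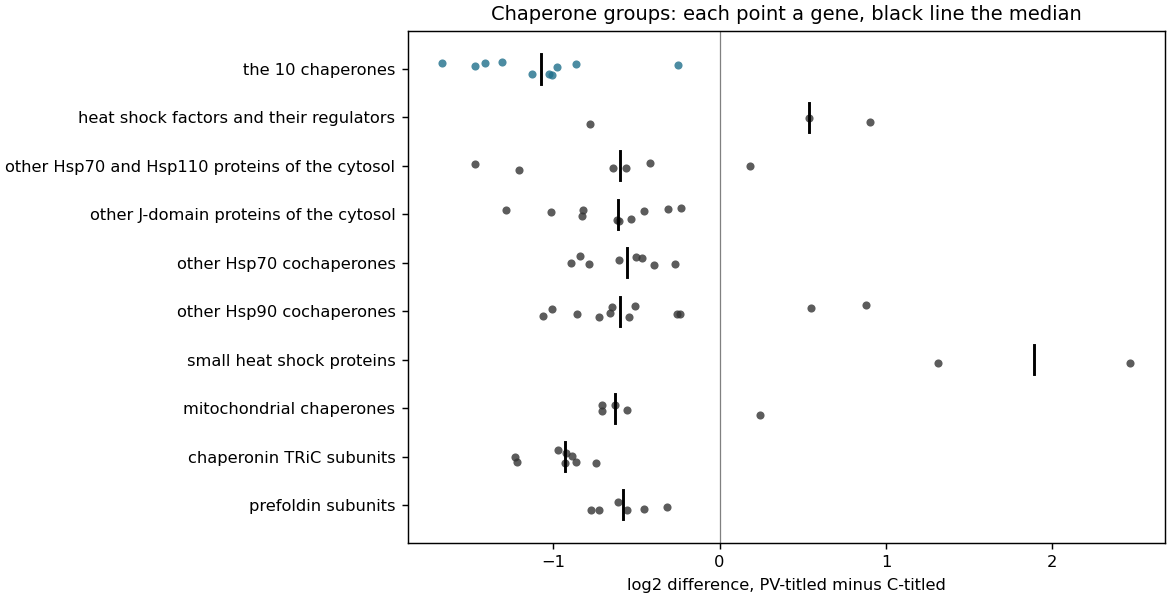
Difference between PV-titled and C-titled libraries on the log2 scale for each gene of the chaperone groups, 1 point a gene and the median as a black line. The 10 chaperones have a median of -1.08, the other groups of the cytosol and mitochondria lie between -0.93 and -0.55, and the heat shock factors and small heat shock proteins have medians above 0.

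Over the day, 7 of the 10 chaperones had a 24 h rhythm in C-titled libraries (edgeR quasi-likelihood F test of a cosine and sine, Benjamini-Hochberg over 13029 genes), where 27% of all genes did. The 7 were Hspa1b, Hsph1, Dnajb1, Dnaja1, Chordc1, Stip1 and Ahsa1, with fitted peaks from ZT17.9 through the end of the cycle to ZT1.78. Hspa8, Hsp90aa1 and Hsp90ab1 were not called. Of the 7 peaks, 4 lay between ZT18 and ZT24, as did 20.3% of the peaks of all 3518 genes called. The median amplitude, from mean to peak in log2, was 0.13 over the 10 genes and 0.12 over all genes. In PV-titled libraries 2 of the 10 were called, Hspa1b and Dnajb1, where 3.1% of 13047 genes were called. Those 2 had the largest amplitudes of the 10 in PV-titled libraries.

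**Figure D3:**
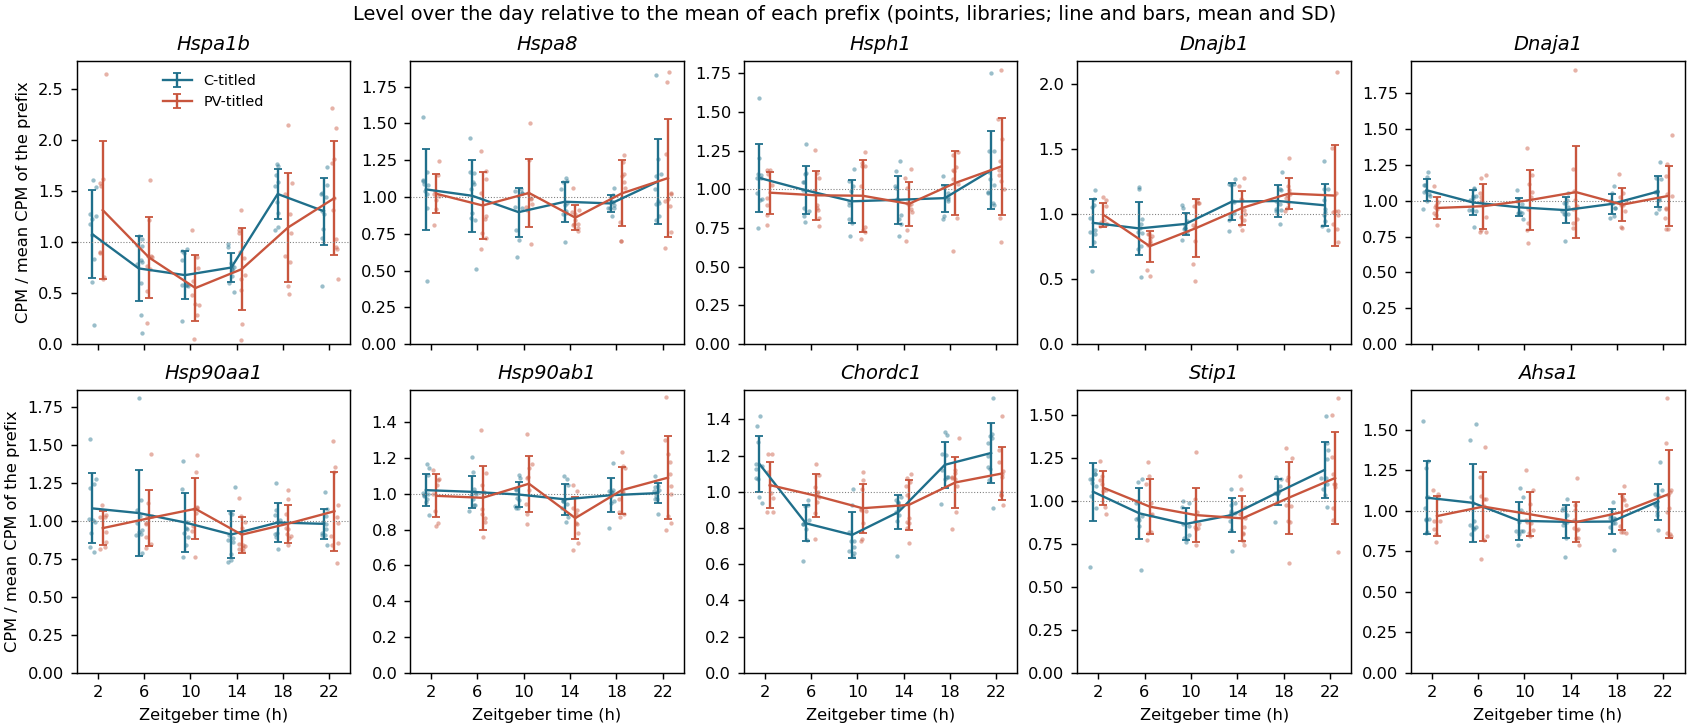
Level of each chaperone at 6 zeitgeber times, divided by its mean over the libraries of the prefix, with each library as a point and the mean ± SD as line and bars. Hspa1b, Dnajb1, Chordc1 and Stip1 have a trough between ZT6 and ZT14, while Hsp90ab1 stays near 1 in C-titled libraries.

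Hspa1b had the widest swing. Its median in C-titled libraries was 17.4 CPM at ZT2, 11.8 at ZT6, 8.41 at ZT10, 10.9 at ZT14, 22.5 at ZT18 and close to that at ZT22, with a mean of 18.9 ± 4.77 CPM (SD, n = 10). All 9 libraries of ZT18 (16.2 to 25.6 CPM) lay above all 9 of ZT10 (3.25 to 13.5 CPM). These times were picked as those with the highest and lowest mean, and such separation between times was not counted over all genes. The fitted amplitude was 0.59 ± 0.10 (SE), a 2.26-fold change from trough to peak, with the peak at ZT21.1 (95% interval ZT19.8 to ZT22.4; edgeR adjusted p = 0.000179). PV-titled medians were 5.68, 3.95, 2.23, 3.51, 5.01 and 6.34 CPM from ZT2 to ZT22, and the ranges of the highest and lowest times overlapped (2.95 to 10.7 CPM at ZT22, 0.234 to 5.17 at ZT10). The amplitude there was 0.67 ± 0.15 with the peak at ZT22.7 (95% interval ZT20.9 to ZT0.364; edgeR adjusted p = 0.0177). Hspa1a, its near copy, had an amplitude of 0.31 ± 0.06 with a peak at ZT20.9 in C-titled libraries (edgeR adjusted p = 0.000175) and 0.26 ± 0.11 with a peak at ZT20.6 in PV-titled ones (edgeR adjusted p = 0.327).

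Among the genes called in either prefix, Dnajb1 was the one with a fitted peak between ZT14 and ZT20. In PV-titled libraries its medians were 88.1 CPM at ZT2, 74.1 at ZT6, 85.0 at ZT10, 94.8 at ZT14, 106.7 at ZT18 and 94.9 at ZT22. All 9 libraries of ZT18 (95.3 to 133.5 CPM) lay above all 9 of ZT6 (48.9 to 79.0 CPM). Here too the times were picked by the highest and lowest mean, and the separation was not counted over all genes. The amplitude was 0.29 ± 0.05 and the peak ZT19.3 (95% interval ZT17.9 to ZT20.6; edgeR adjusted p = 0.00126). C-titled medians ran from 176.7 CPM at ZT6 to 221.2 at ZT14, with overlapping ranges. The C-titled amplitude was 0.19 ± 0.04 with a peak at ZT17.9 (95% interval ZT16.1 to ZT19.6; edgeR adjusted p = 0.00456), an interval that ends before those of Chordc1 and Stip1 begin. The difference in peak between genes was not tested.

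Chordc1 had the smallest p of the 10 in C-titled libraries. Its median was 88.8 CPM at ZT2, 64.5 at ZT6, 56.8 at ZT10, 71.8 at ZT14, 87.8 at ZT18 and 96.5 at ZT22. The lowest library of ZT2 (73.5 CPM) lay below the highest of ZT6 (74.9 CPM). The lowest of ZT22 (71.4 CPM) lay below the highest of ZT10 (79.7 CPM), so the times of highest and lowest mean overlapped at their edges. The amplitude was 0.37 ± 0.04, 1.68-fold from trough to peak, with the peak at ZT21.7 (95% interval ZT21.0 to ZT22.3; edgeR adjusted p = 6.92e-11). In PV-titled libraries the medians lay between 58.1 CPM at ZT10 and 70.6 CPM at ZT22, the amplitude was 0.14 ± 0.04, and the test was not passed (edgeR adjusted p = 0.0905). It was passed with the set number of the titles as a replicate block (amplitude 0.15, edgeR adjusted p = 0.0406).

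Stip1 followed a similar course in C-titled libraries, from a median of 237.5 CPM at ZT10 to 314.97 CPM at ZT22. The amplitude was 0.22 ± 0.03 with a peak at ZT21.9 (95% interval ZT20.8 to ZT23.0; edgeR adjusted p = 9.14e-06). In PV-titled libraries it was 0.18 ± 0.05 with a peak at ZT23.4 (edgeR adjusted p = 0.0592), and DESeq2 called it there (adjusted p = 0.0341).

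The other rhythms in C-titled libraries were shallow. Hsph1 had an amplitude of 0.14 ± 0.03 with a peak at ZT23.8 (edgeR adjusted p = 0.00267), and its medians lay between 496.0 CPM at ZT10 and 580.4 CPM at ZT2. Dnaja1 had an amplitude of 0.11 ± 0.02 with a peak at ZT0.0150 (edgeR adjusted p = 0.00114), between 562.4 CPM at ZT10 and 649.2 CPM at ZT2. Ahsa1 had an amplitude of 0.12 ± 0.04 with a peak at ZT1.78 (edgeR adjusted p = 0.0399), and its ranges overlapped at all times. Without the libraries that stand apart, Ahsa1 was no longer called (amplitude 0.08, edgeR adjusted p = 0.0884) and Hspa8 was (amplitude 0.13, peak ZT23.3, edgeR adjusted p = 0.0113, against 0.136 with them). The number called remained 7, where the share of all genes called went from 27.0% to 21.98%.

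The Hsp90 genes were the flattest. Hsp90ab1 had medians from 2283 CPM at ZT14 to 2405 CPM at ZT22 in C-titled libraries, and its amplitude was 0.03 ± 0.02 (edgeR adjusted p = 0.525). Hsp90aa1 had medians from 812.0 CPM at ZT14 to 932.1 CPM at ZT2, with an amplitude of 0.10 ± 0.04 (edgeR adjusted p = 0.102). In PV-titled libraries the amplitudes were 0.08 ± 0.05 (adjusted p = 0.624) for Hsp90ab1 and 0.05 ± 0.05 (adjusted p = 0.870) for Hsp90aa1. In those libraries Dnaja1 was as flat (0.04 ± 0.05, adjusted p = 0.884). Amplitudes of Hspa8, Hsph1 and Ahsa1 in PV-titled libraries were 0.14 ± 0.06, 0.15 ± 0.05 and 0.10 ± 0.04, with peaks between ZT22.6 and ZT0.0282, and none passed (lowest edgeR adjusted p = 0.187). The SE of the amplitude was smaller in C-titled libraries for each of the 10.

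**Figure D4:**
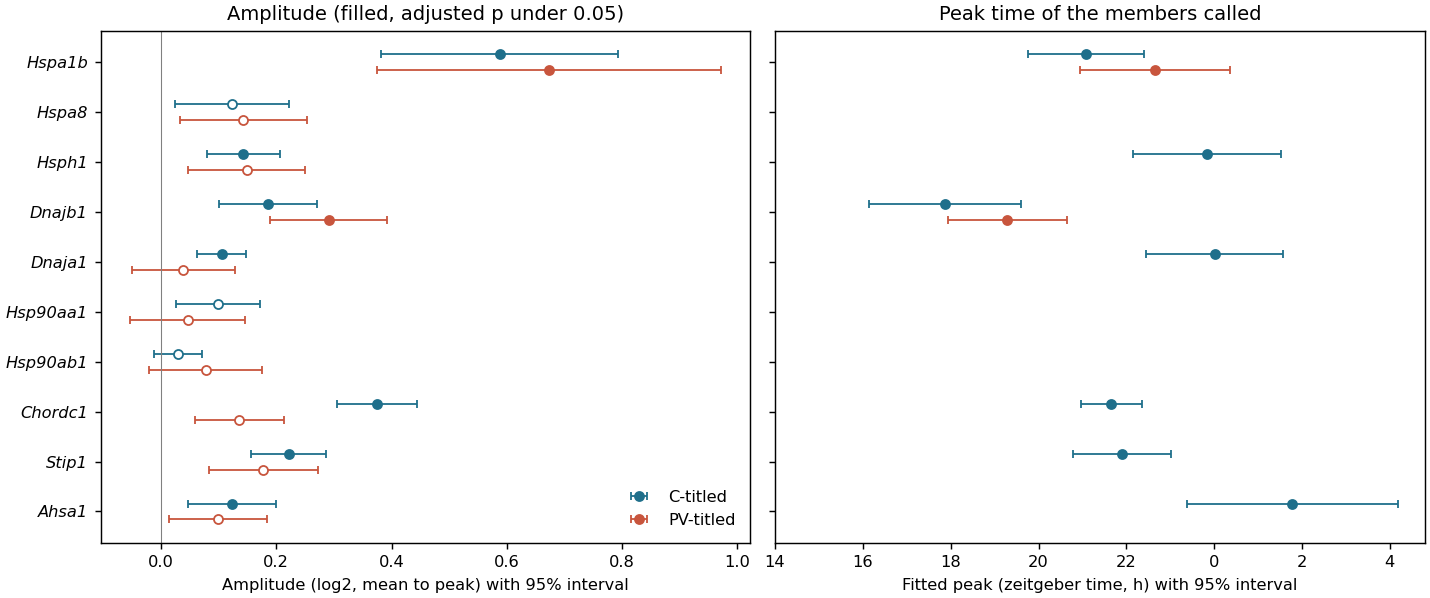
Fitted amplitude in log2 and fitted peak in zeitgeber time of each chaperone, with 95% intervals, in C-titled and PV-titled libraries; filled points passed the test and only those have a peak drawn. Chordc1 is the gene whose amplitudes lie farthest apart relative to their intervals (0.37 and 0.14), and the peaks of Dnajb1 lie at ZT17.9 and ZT19.3.

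A test of the difference in rhythm between prefixes called 1 of the 10, Chordc1, where 0.559% of 13053 genes were called. The test took cosine and sine together, so its p for Chordc1 (edgeR adjusted p = 0.0247) is not for amplitude alone. The amplitude of Chordc1 was lower in PV-titled libraries by -0.24 on the log2 scale (95% interval -0.34 to -0.14). Its peak times differed by 0.81 h (95% interval -1.49 to 3.11 h). Alternatives give the size of the cosine and sine differences combined, which mixes amplitude and peak time and has no sign. Within library-number ranges this size for Chordc1 was 0.16 in the first and 0.35 in the second, and neither passed (edgeR adjusted p = 0.536 and 0.282). With the set number of the titles (1 to 5) as a replicate block in place of the range, this combined size was 0.23. The call was then lost (edgeR adjusted p = 0.0560), and 0.184% of genes were called. For Hspa1b the amplitudes differed by 0.09 (95% interval -0.28 to 0.45) and the peaks by 1.57 h (95% interval -0.58 to 3.73 h). For Dnajb1 these were 0.10 (95% interval -0.03 to 0.24) and 1.42 h (95% interval -0.79 to 3.62 h), and for Stip1 -0.04 (95% interval -0.16 to 0.07) and 1.503 h (95% interval -0.82 to 3.82 h). The lowest adjusted p of the other 9 was 0.381, for Dnaja1.

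Within single library-number ranges fewer of the 10 were called, from fewer libraries. Hspa1b in PV-titled libraries had an amplitude of 0.86 in the first range and 0.49 in the second, and Dnajb1 had 0.33 and 0.25, none of which passed (lowest edgeR adjusted p = 0.176). In C-titled libraries Chordc1 had 0.33 and 0.43, and Stip1 had 0.21 and 0.25, all 4 called. Hspa1b there had 0.54 (edgeR adjusted p = 0.142) and 0.66 (edgeR adjusted p = 0.00345). Hsph1, Dnajb1, Dnaja1 and Ahsa1 were called in neither range alone. Marker sums moved with time as well. In PV-titled libraries the median pyramidal sum was lowest at ZT14 (2093 CPM) and highest at ZT22 (2988 CPM), and the parvalbumin interneuron sum was lowest at ZT22 (492.99 CPM) and highest at ZT6 (684 CPM), although 0 of 9 and 0 of 10 of these markers were called rhythmic. In C-titled libraries the 2 sums changed 1.20-fold and 1.14-fold between times, and 4 of 9 and 1 of 10 were called. Other sums changed more in C-titled libraries: the oligodendrocyte sum 1.28-fold (lowest at ZT10, highest at ZT18, the same times as Hspa1b), the endothelial and mural sum 1.27-fold and the astrocyte sum 1.26-fold. Mbp, a myelin gene, was called there with a peak at ZT19.2 (edgeR adjusted p = 0.000817). In PV-titled libraries the oligodendrocyte sum changed 1.34-fold. The part of any of these cells in the chaperone profiles was not tested.

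Among other chaperone genes, Hsf1 was rhythmic in both prefixes: 0.15 ± 0.04 with a peak at ZT19.7 in C-titled (edgeR adjusted p = 0.0245) and 0.23 ± 0.05 with a peak at ZT21.5 in PV-titled libraries (edgeR adjusted p = 0.00857). It was the only one of the 60 other listed chaperone genes tested in PV-titled libraries to be called. That is 1 of 60, where 3.1% of all genes were called. In C-titled libraries 22 of these 60 were called, where 27% of all genes were. Of the 22 peaks, 10 lay from ZT0 to ZT6, 2 from ZT6 to ZT12, 2 from ZT12 to ZT18 and 8 from ZT18 to ZT24. Over all genes called there, 20.3% of peaks lay from ZT18 to ZT24 and 41.6% from ZT12 to ZT24. These rhythms are given only with the libraries that stand apart included, which in this prefix were from ZT2 and ZT6. For some genes the highest library lay far above the median, as for St13 (median 272.2, highest 5300 CPM) and Hsf2 (median 15.3, highest 445 CPM). Hspa4l, another Hsp110 gene (0.16 ± 0.04, ZT22.8, edgeR adjusted p = 0.00584), Dnajb4 (0.13 ± 0.03, ZT21.2, edgeR adjusted p = 0.00223), Fkbp4 (0.12 ± 0.03, ZT20.6, edgeR adjusted p = 0.00254) and Ppid (0.11 ± 0.02, ZT21.4, edgeR adjusted p = 0.00129) were among the 8. Fkbp5, a target of glucocorticoid receptors, peaked earlier at ZT15.0 (0.42 ± 0.05, edgeR adjusted p = 4.10e-07). Bag2, with the smallest p of the other Hsp70 cochaperones, peaked at ZT17.3 (0.21 ± 0.04, edgeR adjusted p = 0.00118). Vbp1, a prefoldin subunit (ZT0.0513), Hsf2 (ZT5.42), Hspa1l (ZT4.14), Dnajb6 (ZT3.87), St13 (ZT4.56), Bag1 (ZT5.79), Pfdn2 (ZT5.75) and Pfdn1 (ZT5.64) were among the 10, and Dnajc2 peaked at ZT8.37. None of the 5 mitochondrial chaperones and 1 of the 8 TRiC subunits (Cct3) was called in C-titled libraries.

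Sex made no difference that passed the test in any of the 10. Male minus female log2 differences lay between -0.12 and 0.08 for C-titled and between -0.08 and 0.22 for PV-titled libraries, and edgeR called 0 of 10 in each, where 0.184% and 0.0307% of all genes were called. At an unadjusted p under 0.05 these counts were 1 (Hsph1 in C-titled, -0.12 ± 0.05, unadjusted p = 0.00845) and 0. Rhythm by sex was also called by edgeR for 0 of 10 in each prefix, where 0% of all genes were called in either prefix, with 1 unadjusted in each (Chordc1 in C-titled, Stip1 in PV-titled libraries).

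Levels of the chaperones were also compared from library to library once time, sex and library-number range were removed from log2 CPM. Among 90 pairs over both prefixes, 30 of 45 passed in PV-titled libraries, all with positive r, and 24 of 45 in C-titled ones, 18 with positive and 6 with negative r (permutation test of Pearson's r, 100000 resamples, Benjamini-Hochberg over the 90). The median r was 0.44 over PV-titled and 0.24 over C-titled libraries, or 0.45 and 0.34 without those that stand apart. The smallest r that passed was 0.34 in size in PV-titled libraries, where 7.01% of all gene pairs had an r at least that high and 6.58% one at least that far below 0. In C-titled libraries it was 0.29 in size, and 22.2% and 21.7% of all gene pairs reached it. All libraries of a prefix share TMM scaling, and shared scaling error can enter each r.

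The Hsp90 genes were the closest pair in PV-titled libraries, with r = 0.82 and Spearman's rho = 0.79 (n = 55, both permutation p = 1e-05, the smallest the resamples can give, adjusted 5.62e-05 and 6e-05). The r was 0.77 without the 2 libraries farthest from the median, 0.80 and 0.84 within the library-number ranges. In C-titled libraries the same pair had r = 0.61 and rho = 0.63 (n = 58, both permutation p = 1e-05, adjusted 5.62e-05 and 6e-05), and 0.57 without the 2 farthest. By r over all C-titled libraries the closest pair was Hspa8 with Stip1, with r = 0.83 and rho = 0.72 (both permutation p = 1e-05, adjusted 5.62e-05 and 6e-05). Its r was 0.68 without the 2 farthest and 0.74 without the libraries that stand apart. Next by r came Hspa8 with Dnajb1 at 0.78, with rho = 0.60 and r = 0.57 without the libraries that stand apart. By rho, without the 2 farthest and without the libraries that stand apart (r = 0.81), Hspa8 with Hsph1 was the closest C-titled pair. Hspa8 and its exchange factor Hsph1 had r = 0.75 and rho = 0.80 in C-titled (both permutation p = 1e-05, adjusted 5.62e-05 and 6e-05; 0.84 without the 2 farthest) and r = 0.68 and rho = 0.66 in PV-titled libraries (both permutation p = 1e-05, adjusted 5.62e-05 and 6e-05; 0.61 without the 2 farthest).

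The 6 negative pairs in C-titled libraries were Hspa1b with Hspa8, Hsph1, Dnajb1 and Ahsa1, and Hsp90aa1 with Hspa8 and Dnajb1. By Spearman's rho, only Hspa1b with Ahsa1 and Hsp90aa1 with Dnajb1 passed (permutation test). For Hspa1b the r was -0.45 with Hsph1 and -0.44 with Dnajb1, or -0.24 and -0.22 without the libraries that stand apart. The rho of these pairs was -0.16 and -0.21 (permutation test, adjusted p = 0.27 and 0.159), and that of Hsp90aa1 with Hspa8 was -0.20 (adjusted p = 0.171). Hsp90aa1 had r = -0.44 with Hspa8 and -0.54 with Dnajb1 (n = 58, permutation test, adjusted p = 0.00254 and 0.000123), which became -0.21 and -0.38 without the libraries that stand apart. Within the library-number ranges these were 0.31 and -0.69 for Hspa8 and -0.09 and -0.71 for Dnajb1. For Hspa1b the r with Ahsa1 was -0.65 and rho -0.37 (n = 58, permutation p = 1e-05 and 0.00416, adjusted 5.62e-05 and 0.00814). Without the 2 libraries farthest from the median r was -0.49, without the 5 that stand apart -0.45, and within the library-number ranges -0.73 and -0.56. With Hspa8 the r was -0.45 and rho -0.25 (permutation p = 0.00146 and 0.0536, adjusted 0.00329 and 0.0832), and r was -0.28 without the libraries that stand apart. In PV-titled libraries the r of Hspa1b was -0.01 with Ahsa1 and 0.12 with Hspa8 (n = 55, permutation p = 0.942 and 0.365). Of those 5, 3 held the lowest Hspa1b level of ZT2 (2.75 CPM) and the 2 lowest of ZT6 (1.62 and 4.16 CPM) together with Ahsa1 at 239.2, 221.4 and 236.5 CPM, the highest Ahsa1 levels of all C-titled libraries. The other two had Hspa8 at 1143 and 1358 CPM with Hsp90aa1 at 1419 and 1671 CPM, so the 5 did not deviate in 1 direction.

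**Figure D5:**
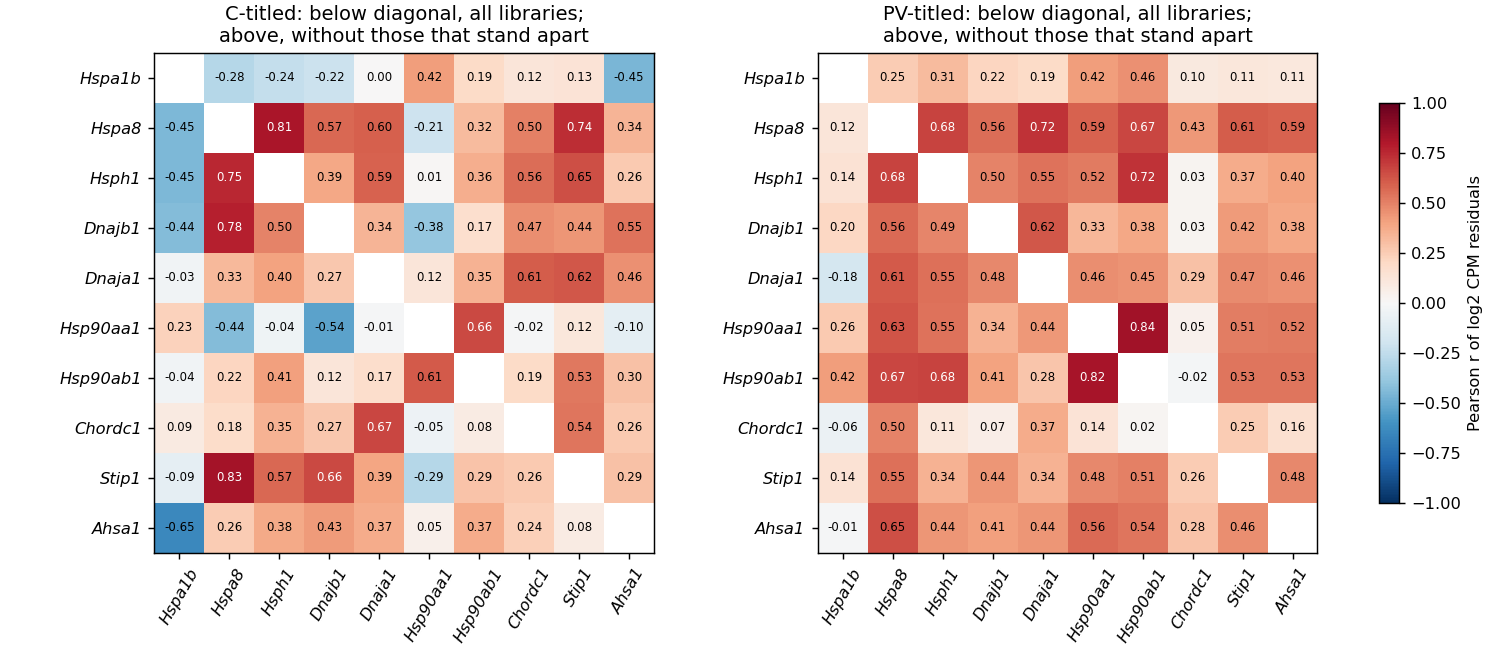
Pearson r between chaperones over libraries of 1 prefix, on log2 CPM with time, sex and library-number range removed; below the diagonal all libraries (58 C-titled, 55 PV-titled), above it without those that stand apart. Most squares are above 0, the Hsp90 genes reach 0.82 in PV-titled libraries, and the column of Hspa1b in C-titled libraries holds the lowest value, -0.65.

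The genes whose levels most resembled the mean z-score of the 10 were, in C-titled libraries, Hsp90b1 (r = 0.84 over 58 libraries), Pdia6 (0.83), 1810014B01Rik (0.80), Fkbp4 (0.78) and Gm26825 (0.76), among 12836 genes with a median r of -0.02. In PV-titled libraries they were Gm15459 (r = 0.85 over 55 libraries), Gm26825 (0.82), Pgk1 (0.73), Pak1 (0.72) and Tgoln1 (0.71), among 12984 genes with a median of -0.02. These values are descriptions, from libraries that share time, scaling and depth, and Gm26825 was on both lists.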

How the data were processed

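RNA pulled down with tagged ribosomes was sequenced by the submitters (SMART-seq HT cDNA, Nextera Flex libraries, per the labels' protocols). The deposited values are raw counts of reads per gene, whole numbers made by the authors; FastQC, HTSeq, DESeq2 and build GRCm38 are named in the submitters' processing notes, without versions. The aligner, the annotation, strand use and the treatment of reads with several matches were not given in the sources used here. A row of reads assigned to no gene was left out. It held 51.9% to 59.4% of a C-titled library and 55.5% to 67.7% of a PV-titled one, and the part of this in the level differences was not tested. Of 13101 identifiers, 13051 matched a symbol in GENCODE vM21, which also gave positions and exon lengths. Of 114 libraries 113 were used: 1 column did not match its title and was left out. No library was a copy of another of its group (lowest chi-square per gene 14.0 over 252 C-titled pairs, 32.6 over 226 PV-titled pairs).

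Tests used edgeR 4.0.16 in R 4.3.3 (TMM scaling, filterByExpr, quasi-likelihood F tests, glmTreat at 2-fold), with Benjamini-Hochberg adjustment over all genes tested and a threshold of 0.05. The fit for the prefix held time (6 levels), sex and library-number range as further terms. Library numbers in the titles fall into 2 ranges, and what they stand for is not stated. Rhythm was tested within a prefix by the cosine and sine of 24 h with sex and range as terms, its difference by their products with the prefix. Intervals are ± 1.96 SE by the delta method. DESeq2 1.42.0, RLE size factors, no filter, single ranges and sexes, no range term and time as a factor were alternatives; leaving out the libraries that stand apart, the set number of the titles as a replicate block and no scaling beyond library totals were added after seeing the data. Correlations used log2(CPM + 0.5) in Python with scipy 1.17.1; the fits were tested on simulated data. Counting error was not given, since reads without molecular identifiers are not independent molecules. The 10 genes and all lists were chosen with earlier results of these data known. All 10 are described; other chaperone groups are counted, with at most 3 genes of smallest p named from each, and the 5 genes most like the mean z-score of the 10 are named for each prefix among genes over a mean of 1 CPM.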

Additional observations from a re-analysis of the deposited data

Results flagged for a closer look

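In 13 of 120 groups of 1 gene, prefix and time, the highest or lowest library lay farther from its nearest neighbour than Dixon's 95% limit allows, and chance flags about 1 in 20 groups (5%). The 13 came from 10 libraries, and 4 of the 13 lay in libraries that stand apart. Of those 4, Dnaja1 was at 580 CPM in a male PV-titled library of ZT14 (next 370 CPM), Stip1 at 170.3 CPM in a male C-titled library of ZT2 (next 266.8 CPM), and a female C-titled library of ZT6 held both Hsp90aa1 at 1671 CPM (next 1052 CPM) and Stip1 at 166.5 CPM (next 237.9 CPM). A male C-titled library of ZT22 had Hspa8 at 4906 CPM (next 3366 CPM) and Hsph1 at 947.6 CPM (next 676.1 CPM). A female C-titled library of ZT14 was lowest for Dnaja1 at 436.9 CPM (next 552.2 CPM) and for Chordc1 at 50.4 CPM (next 65.9 CPM), and Stip1 was lowest at 244.3 CPM in a female C-titled library of ZT18. In PV-titled libraries, each male, the high values were Hspa8 at 1141 CPM at ZT14, Dnajb1 at 133.5 CPM at ZT18, Hsp90aa1 at 499.4 CPM at ZT6 and Stip1 at 179.8 CPM at ZT10.

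The rhythm of Chordc1 differed between prefixes in a joint test of the cosine and sine differences (edgeR adjusted p = 0.0247), with an amplitude difference of -0.24 on the log2 scale (PV-titled minus C-titled). This was the only one of the 10 genes with such a difference, and it kept its call without the libraries that stand apart (edgeR adjusted p = 0.0222) but not with the set number of the titles as a replicate block (edgeR adjusted p = 0.0560).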

How the results depend on the processing

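All 10 chaperones were lower in PV-titled libraries under every alternative run except no scaling beyond library totals (9, Chordc1 lost). Of all genes called, 48.4% to 50.3% were lower under the other alternatives and 38.3% with no scaling. Of single-gene results, 421 under alternatives kept their side of the threshold, 35 lost the call and 3 gained it. The 3 were Stip1 in PV-titled libraries by DESeq2, Chordc1 there with the block described below, and Hspa8 in C-titled libraries without those that stand apart. None reversed where direction was checked, by sign for the prefix difference and by peak time for rhythm results called in both fits. The direction of other rhythm results was not checked. DESeq2 gave no adjusted p for Hspa1b in PV-titled libraries, so its 2 calls there were Dnajb1 and Stip1. In PV-titled libraries the 2 rhythm calls became 0 in the first range, 0 in the second, 0 in females, 0 in males and 1 (Dnajb1) with time as a factor, where the share of all genes called went from 3.10% to 0.153%, 0.307%, 0.997%, 0.0613% and 1.20%. In C-titled libraries the 7 became 2, 3, 2 and 4 in the first range, the second range, females and males, where the share called went from 27.0% to 2.90%, 10.2%, 2.07% and 3.63%, and to 10.03% with time as a factor. Fits on a single range or sex use 26 to 29 libraries of a prefix. The rhythm difference of Chordc1 was lost in each range and each sex (0 called), where the share called went from 0.559% to 0%, 0.0153%, 0.0307% and 0.00766%. That share was 1.20% by DESeq2, 1.71% with no range term, 0.138% without the libraries that stand apart and 0.283% with no scaling, and Chordc1 kept its call in these 4. Replicate numbers follow the order of deposit and pair nothing, but the titles carry a set number from 1 to 5. Some sets hold each time and sex once, and others lack some of these combinations or repeat 1. With that number as a replicate block in place of the range, 10 chaperones stayed lower, where 5630 of 13053 genes were called lower. In PV-titled libraries 3 were called rhythmic (Chordc1 added), where 3.53% of genes were. In C-titled ones 7 were called, where 25.7% of genes were. The rhythm difference of Chordc1 was lost (0 called, edgeR adjusted p = 0.0560), where 0.184% of genes were called. The labels do not say what a set is. Deviations from the time means had a median correlation of 0.21 within a set and -0.06 between sets in C-titled libraries, and 0.09 and -0.02 in PV-titled ones. Of 58 and 55 libraries, 36 and 29 correlated best with their own set. The lowest level of the 10 was that of Hspa1b, with a median of 4.004 CPM in PV-titled libraries. Cell type names rest on titles that the cell type entries contradict.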
